A study of Mus musculus with 6 samples.

Results

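Counts of back-spliced reads in 6 libraries were searched for circular RNAs (circRNAs) made from 4 mouse genes that act on chromatin or carry zinc fingers, namely Nsd2, Setbp1, Zfp827 and Zfx. One circRNA of each gene was named by its circBase identifier, circ_0001335 of Nsd2, circ_0000903 of Setbp1, circ_0001698 of Zfp827 and circ_0016408 of Zfx. Every circRNA on the same strand that overlapped one of these was added by position, which gave a longer Setbp1 circRNA absent from circBase and circ_0001697 of Zfp827. The resulting 6 circRNAs, 4 by identifier and 2 by position, were taken from 3662 in all, and they held 1808 of 243190 circRNA reads (0.743%).

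The cells were a primary culture of the stromal vascular fraction, which is the mixture of precursor, vascular and immune cells left when mature fat cells are removed, from inguinal white fat of female mice 6 weeks of age, C57BL/6 in the labels and C57BL/6J in the methods of the study. The 3 groups differed in stage and in the culture medium that goes with it, which cannot be told apart, and each held 2 libraries. D0 was the growing culture, D4 followed 4 days in an induction medium with insulin, dexamethasone and 3-isobutyl-methylxanthine, and D8 followed 4 further days with insulin and T3, a thyroid hormone. Serum was present throughout, and RNA was depleted of rRNA and linear RNA before sequencing.

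A circRNA forms when the end of an exon is spliced back to the start of the same exon or of one further upstream, and reads across that joint are what was counted. Nsd2 methylates a lysine of histone H3 in transcribed chromatin. Setbp1 binds the SET protein and DNA, Zfp827 is a zinc-finger protein that recruits a chromatin remodelling complex, and Zfx is an X-linked zinc-finger transcription factor required by stem cells. The circRNAs of these genes are counted apart from their mRNAs, so none of the values below is a level of the mRNA or the protein.

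The 40 bases around the back-splice joints of 4 of the 6 circRNAs are shown because the joint tells a circle from its linear transcript, and those of Setbp1 are not printed. Lower case marks the last 20 bases of the closing exon and capitals mark the first 20 bases of the opening exon, read 5′ to 3′ from mm9. The Zfa line is a circRNA listed at Zfa, an intronless copy of Zfx. It is described with Zfx, since its reads may come from either gene.
Nsd2 circ_0001335: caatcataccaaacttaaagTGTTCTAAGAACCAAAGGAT
Zfp827 circ_0001698: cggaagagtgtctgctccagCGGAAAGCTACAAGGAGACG
Zfp827 circ_0001697: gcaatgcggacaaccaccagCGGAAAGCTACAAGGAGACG
Zfx circ_0016408: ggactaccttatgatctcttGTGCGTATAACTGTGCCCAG
Zfa circRNA: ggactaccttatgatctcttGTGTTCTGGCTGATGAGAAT

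The Zfp827 lines share their capitals and differ in lower case, since both circles open with the same exon and close with different ones. The Zfx and Zfa lines share their lower case and differ in the capitals. In all 6 circRNAs the genome had AG before the opening exon and GT after the closing exon, the bases of ordinary splice sites. The Zfa circRNA, in a copy without introns, also had AG before and GT after it.

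Replicates 1 and 2, given in that order throughout, held 30110 and 32310 circRNA reads for D0, 43069 and 41658 for D4, and 45371 and 50672 for D8. Levels are given as circCPM, which scales the reads of each circRNA to a total of 1000000 circRNA reads in its library, and 1 read was worth 19.7 to 33.2 circCPM. The replicates of D0 differed most, with a chi-square per degree of freedom of 6.11 against 2.68 on D4 and 4.62 on D8, where sampling alone gives about 1. No value in the table was exactly 1, so a circRNA listed at 0 may have had a single read. Of the marker genes of fat cells, 8 of 15 had a circRNA, and their summed circCPM was 1640 to 2823 in D0 libraries, 3692 to 4009 in D4 libraries and 9433 to 9984 in D8 libraries. On D0 this sum was made up mostly of the circRNAs of Insr (mean 1710 circCPM) and Acaca (444). Of the 5 circRNAs of fat cell markers tested edgeR called 1, against 1.14% of all tested. It was that of Mlxipl, a glucose-responsive transcription factor, with 0 reads at D0, 10 and 7 at D4, and 43 and 65 at D8 (adjusted p = 0.0447, and 0.000109 to 0.0802 over its alternatives). Preadipocyte markers were represented by Pdgfra alone (8 and 10, 3 and 0, and 4 and 5 reads on D0, D4 and D8) and immune markers by Adgre1 alone (10 and 4 reads on D8 and 0 in the other libraries), while none of 8 endothelial and 6 mural cell markers had one. The part of this shift in the levels below was not tested, and in bulk RNA fewer cells of a type and less RNA per cell cannot be told apart.

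The 4 named circRNAs were chosen by their circCPM levels over the stages, which were known at that time, so these levels are given as a description and without p-values. For the same reason nothing is read from how many of them passed a test. Their log2 fold changes and standard errors (SE) come from edgeR's fit of the whole table. Each SE was worked out as the fold change, without its sign, divided by the square root of that comparison's F statistic.

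The Nsd2 circRNA was abundant before differentiation and lowest at its end. D0 gave 162 and 115 reads of circ_0001335, D4 164 and 126, and D8 60 and 62. In circCPM these were 5380 and 3559, 3808 and 3025, and 1322 and 1224. Both D8 libraries lay below the other 4, and the D0 and D4 libraries overlapped. Means from D0 to D8 were 4469.8 ± 1288, 3416 ± 554 and 1273 ± 69.9 (SD, n = 2). The log2 fold change was -0.30 (SE 0.29) from D0 to D4, -1.72 (SE 0.30) from D0 to D8 and -1.42 (SE 0.30) from D4 to D8. Without replicate 1 of D0 the first turned to 0.065. By mean level it stood 17th among all circRNAs on D0, 28th on D4 and 124th on D8.

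The Setbp1 circRNA moved the other way. Reads of circ_0000903 numbered 93 and 91 at D0, 108 and 114 at D4, and 191 and 224 at D8. Its levels were 3089 and 2816, 2508 and 2737, and 4209.7 and 4421 circCPM. Both D8 libraries lay above the other 4, and both D0 libraries lay above both of D4. The log2 fold change was -0.08 (SE 0.22) from D0 to D4, 0.64 (SE 0.22) from D0 to D8 and 0.72 (SE 0.22) from D4 to D8. The first turned to 0.018 without replicate 1 of D0. With 821 reads it was the most read of the 6, and its replicates differed by factors of 1.10, 1.09 and 1.05 on D0, D4 and D8.

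The Zfp827 circRNA was at its lowest in the middle of the course. D0 libraries held 51 and 35 reads of circ_0001698, those of D4 9 and 8, and those of D8 19 and 16. These were 1694 and 1083, 209 and 192, and 419 and 316 circCPM. The 3 stages did not overlap, with D0 highest and D4 lowest. The log2 fold change was -2.68 (SE 0.50) from D0 to D4, -1.82 (SE 0.47) from D0 to D8 and 0.87 (SE 0.51) from D4 to D8. Its rank by mean level was 104, 1093 and 604 from D0 to D8.

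The Zfx circRNA was listed on D4 alone. Circ_0016408 had 43 and 36 reads there, or 998 and 864 circCPM (mean 931 ± 94.9, SD, n = 2), and the D0 and D8 libraries all listed it at 0. No fold change is given against stages listed at 0. Its level put it 194th among the circRNAs of D4.

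**Figure D1:**
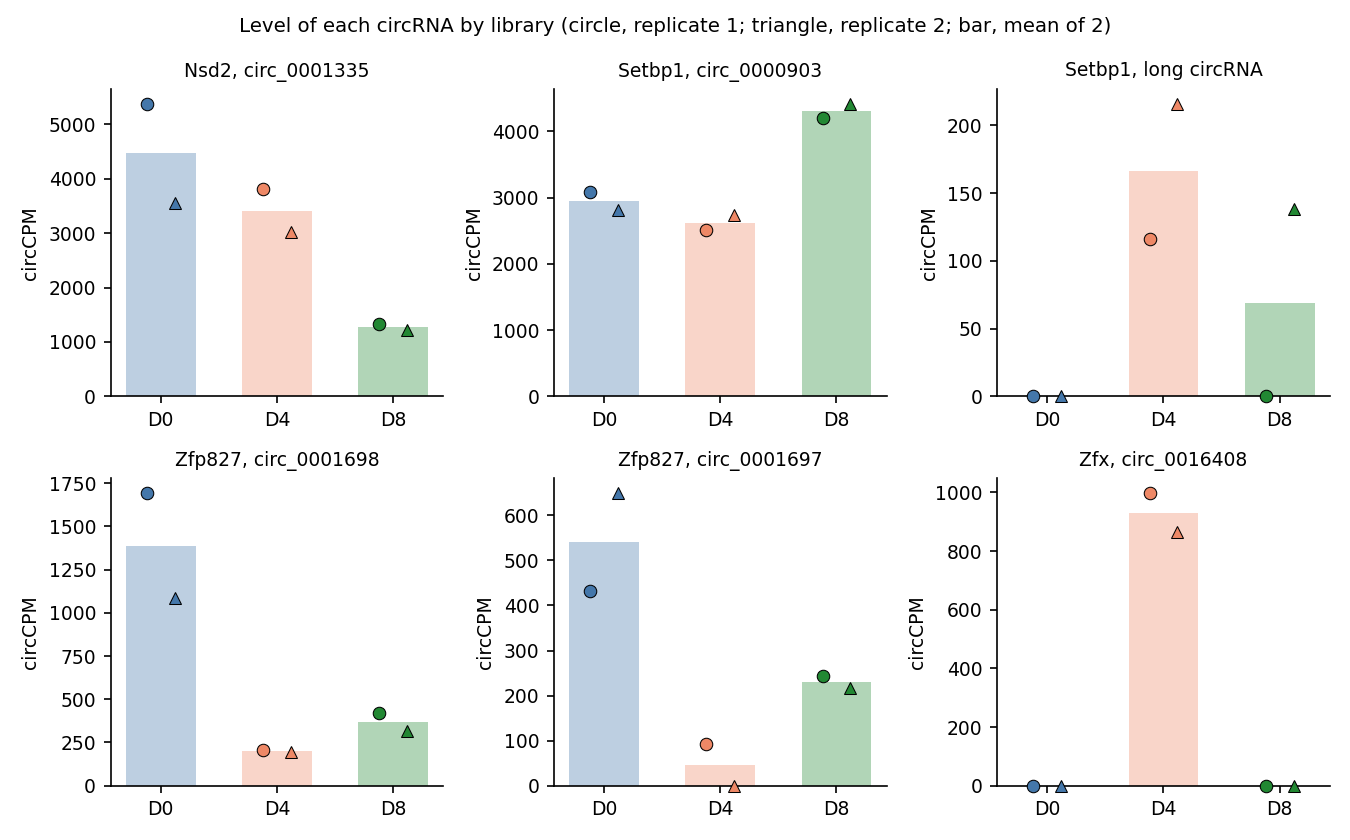
Level in circCPM (vertical axis) of each of the 6 circRNAs in the D0, D4 and D8 libraries (horizontal axis), 1 point per library and a bar at the mean of each stage. Nsd2 circ_0001335 is lowest on D8, Setbp1 circ_0000903 highest on D8, both Zfp827 circRNAs lowest on D4, and Zfx circ_0016408 is above 0 on D4 alone.

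Other circRNAs were also read in a single stage. In all, 198 circRNAs were read in both libraries of D0 and listed at 0 elsewhere, 145 did so on D4 and 201 on D8. Their median was 9 reads over both libraries in each stage. The 79 reads of Zfx circ_0016408 were the most of any, the next on D4 being Nfia with 30, Bmper with 26 and Abi1 with 25. The highest on D0 had 28 reads and on D8 50.

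The circRNAs found by position came from the Zfp827 and Setbp1 loci, and both were rarer than the named one they overlapped. The D0 libraries gave 13 and 21 reads of circ_0001697 of Zfp827, D4 gave 4 and 0, and D8 gave 11 and 11. Its levels were 432 and 649.95, 92.9 and 0, and 242 and 217 circCPM. Like circ_0001698 it was highest on D0 and lowest on D4, with no overlap between the 3 stages. The log2 fold change was -3.35 (SE 1.08) from D0 to D4, -1.13 (SE 0.91) from D0 to D8 and 2.22 (SE 1.09) from D4 to D8. Without replicate 2 of D4 the first became -2.36 and the last 1.27, and without replicate 1 that stage was at 0 and no fold change is given.

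In all 5 of the 6 circRNAs passed the filter on low counts. Circ_0001697 was the 1 of the 2 found by position that did so, and it was not called. The edgeR test over all 3 stages gave an adjusted p = 0.224, which ranged from 0.159 to 0.424 over its alternatives. Thus 0 of 1 was called by edgeR and 0 by DESeq2, with 1 at an unadjusted p below 0.05. In the whole table edgeR called 16 of 1407 circRNAs tested (1.14%), 0.853% being higher and 0.213% lower on D8 than on D0 and the remaining 1 being listed at 0 in both of these stages, and 295 (21%) had an unadjusted p below 0.05.

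The long Setbp1 circRNA was listed at 0 in both D0 libraries, with 5 and 9 reads at D4 and with 0 and 7 at D8. In circCPM it reached 116 and 216 on D4 and 138 in replicate 2 of D8. The stages overlapped, and with 21 reads in all it was too rare for the test.

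Within each locus the reads were split between the 2 overlapping circRNAs. Circ_0001697 held 60 of the 198 reads of both overlapping Zfp827 circRNAs (30.3%, exact 95% interval 24.0 to 37.2). By stage the share was 28.3% for D0 (20.5 to 37.3), 19.0% for D4 (5.45 to 41.9) and 38.6% for D8 (26.0 to 52.4). These intervals overlap, the D0 libraries alone were at 20.3 and 37.5%, and a difference between stages was not tested. The intervals cover counting error only. The methods of the study mention no molecular identifiers, so several reads may come from a single molecule.

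The long Setbp1 circRNA held 21 of the 842 reads of its locus (2.49%, exact 95% interval 1.55 to 3.79). It was 0 of 184 reads on D0, 14 of 236 on D4 (5.93%, 3.28 to 9.75) and 7 of 422 on D8 (1.66%, 0.669 to 3.39). The reads on D8 all came from replicate 2. No interval is given at 0, since single reads are not listed.

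**Figure D2:**
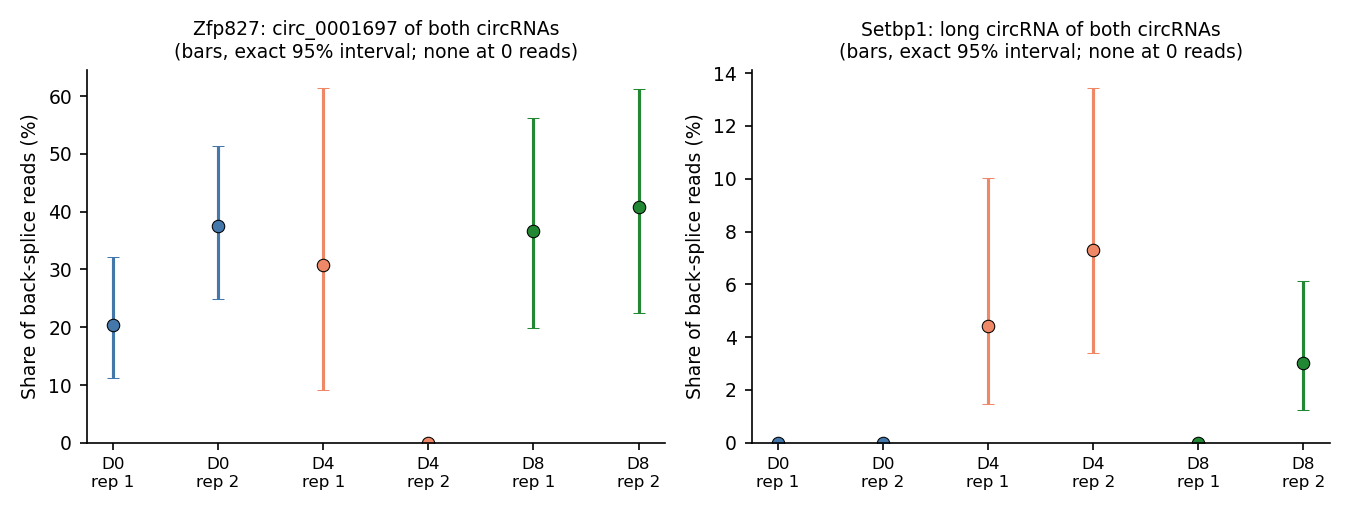
Share of the back-splice reads of a locus (vertical axis, percent) held by circ_0001697 of Zfp827 (left) and by the long Setbp1 circRNA (right) in each library, with exact 95% intervals and none at 0 reads. The Zfp827 shares lie between 20.3 and 40.7% apart from replicate 2 of D4 at 0 of 8 reads, and the highest Setbp1 share is 7.32%.

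One further circRNA of these genes lay outside the overlaps. Circ_0001695 of Zfp827 (chr8:81615732-81615965, plus strand) had 4 reads in each D0 and D8 library. Like Zfp827 circ_0001698 it was lowest on D4, where it was listed at 0, but with 16 reads it was not tested. No other circRNA was listed at Nsd2 or Zfx.

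The circles were next placed on the gene models. Where transcripts differed, the annotated path with most exons was used, and the exons inside a circle were not themselves measured. Nsd2, annotated as Whsc1, spans chr5:34163374-34240624 on the plus strand of mm9. Circ_0001335 (chr5:34185761-34188916) joins exons 3 and 4 of 23, of 626 and 163 bases. Of its 789 bases 760 are coding, and the 29 before them are followed by the start codon of the protein.

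Zfp827 lies at chr8:81552336-81717665 on the plus strand. Circ_0001698 (chr8:81642074-81660562) joins exons 6 to 8 of 15, of 240, 58 and 104 bases, and circ_0001697 (chr8:81642074-81644439) exons 6 and 7. All 402 and 298 bases are coding and neither holds the start codon. The circles differ by exon 8 (chr8:81660459-81660562, plus strand), which is shown because a detection primer, in capitals, lies in it.
Zfp827 exon 8: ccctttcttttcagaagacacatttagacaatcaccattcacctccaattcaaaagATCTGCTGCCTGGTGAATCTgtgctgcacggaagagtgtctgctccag

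The primers designed for circ_0001698 are atctgctgcctggtgaatct and tcagttttctctcgccccat. The first matches bases 355 to 374 of the 402-base circle, within exon 8, and the second reads back from bases 117 to 136. Together they bound a product of 184 bases across the joint, and none on circ_0001697, which lacks exon 8.

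Zfx lies at chrX:91319970-91369041 on the minus strand. Circ_0016408 (chrX:91343622-91359602) runs from exon 2 to exon 5 of 6, of 68, 83, 90 and 570 bases. Its 811 bases include 180 before the start codon and 631 coding. An annotated transcript without the exon of 83 bases would give a circle of 728 bases.

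Setbp1 lies at chr18:78947119-79306130 on the minus strand. Circ_0000903 (chr18:79283290-79283919) is exon 2 of 6 alone, 630 bases long, with 165 bases of 5′ UTR and 465 of coding sequence. The long circRNA (chr18:79120728-79283919) adds exon 3 of 54 bases and spans 163192 bases, a length reached by 0.164% of the circRNAs. Both hold the start codon. The primers designed for the Setbp1 circRNA have both sites in exon 2. They bound 238 bases of circ_0000903 and 292 of the long circRNA, so they match both circles and the products differ by the 54 bases of exon 3.

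**Figure D3:**
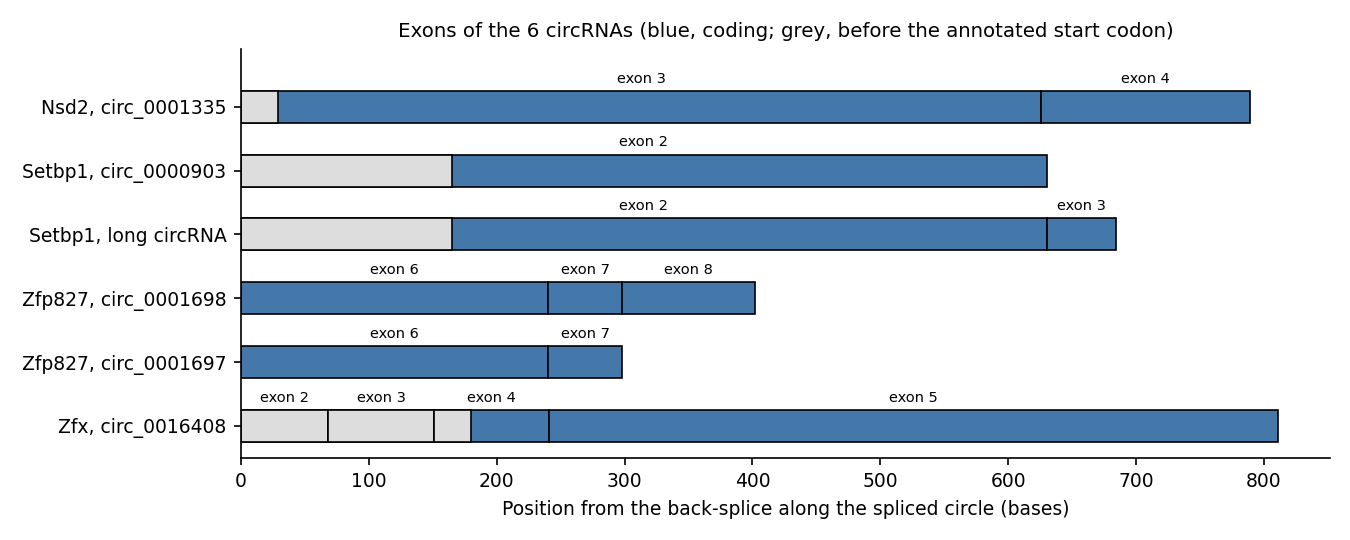
Exons of each circle in order on a scale of spliced bases (horizontal axis), 1 row per circRNA, with coding and noncoding bases coloured apart. The Zfp827 circles are coding throughout, and the other 4 begin with noncoding bases and hold a start codon.

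Compared with all circRNAs whose ends met annotated exons, those of the 4 genes varied in length. Spliced length exceeded the median of 443 bases in 4 of 6, and the Zfp827 circles fell below it. Zfx at 811 and Nsd2 at 789 bases were reached or exceeded by 12.2 and 13.5% of the table. The start codon lay within 4 of 6, against 554 of the 3214 with coding bases (17.2%), and the length was a multiple of 3 in 4 of 6, against 1209 of all 3338 (36.2%). With overlapping circles among only 6, these counts are a description.

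The intron after the circle was longer than the median of 8209 bases in 6 of 6. The intron before it was longer than the median of 10478.5 in 5 of 6, Zfx with 8804 being the exception. These 5 are not separate introns, since both Setbp1 circles follow the same one of 22007 bases and both Zfp827 circles the same one of 26108. The intron after circ_0000903 of Setbp1 was 162508 bases, a length reached by 0.420% of circRNAs. Nsd2 circ_0001335 had introns of 21383 and 8342 bases, and Zfp827 circ_0001698 of 26108 and 39169. Sequence in these introns that could pair across the circle was measured as the longest run within 1000 bases of each end that is matched in reverse complement by the other side. For Setbp1 circ_0000903 this run was 8 bases, as short or shorter in 0.437% of circRNAs, for Nsd2 circ_0001335 it was 12, and the median was 11.

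**Figure D4:**
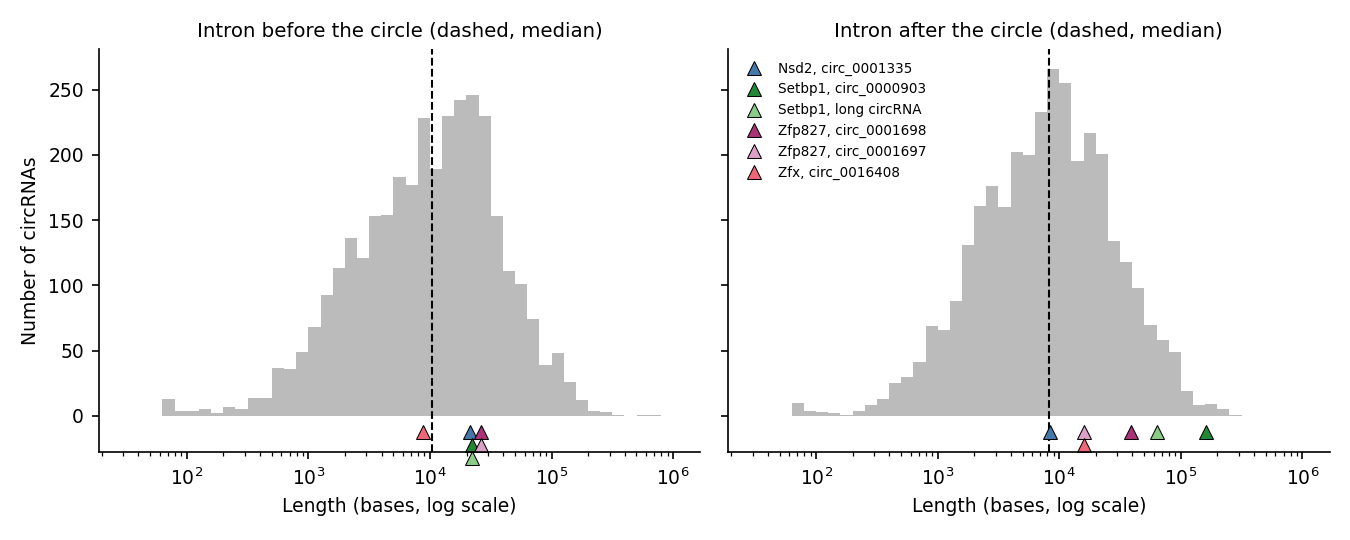
Number of circRNAs (vertical axis) by the length in bases of the intron before (left) and after (right) the circle on a log axis, with triangles for the 6 circRNAs and a dashed line at the median. All 6 lie above the median on the right, and Setbp1 circ_0000903 lies in the far tail at 162508 bases.

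The Zfx circRNA was the only 1 of the 6 whose spliced bases mapped to a second place in mm9. That place is Zfa (chr10:52262124-52265545, minus strand), an intronless copy with a single annotated exon. The table lists a circRNA inside it, at chr10:52264413-52265073. It was singled out by this sequence likeness after its values had been seen.

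The Zfa circRNA is 661 bases long and aligns with bases 152 to 811 of the Zfx circle, which are exactly the Zfx exons of 90 and 570 bases. Of its bases 643 equal those of Zfx (97.3%). Its ends therefore fall where exons end in Zfx, although Zfa has no intron there. The Zfa bases next to the circle match Zfx exon 2 in 64 of 68 positions. Around its joint, the 95 bases after and the 63 before are the same in both genes, so a read that stays within them cannot be told apart between Zfa and a Zfx circle of those 2 exons. The read length is not given in the sources used here.

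The circRNA listed at Zfa was read in all 3 stages. Its reads were 0 and 14 for D0, 14 and 22 for D4, and 10 and 17 for D8. In circCPM these were 0 and 433, 325 and 528, and 220 and 335, and the stages overlapped. The log2 fold change was 1.04 (SE 1.12) from D0 to D4 and 0.44 (SE 1.14) from D0 to D8. The edgeR stage test gave an adjusted p = 0.821, and 0.145 to 0.975 over its alternatives. Summed with the Zfx circRNA, the reads came to 0 and 14 for D0, 57 and 58 for D4, and 10 and 17 for D8. Reads listed under Zfx circ_0016408 enter this sum on D4 alone, while those listed at Zfa may come from either gene.

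**Figure D5:**
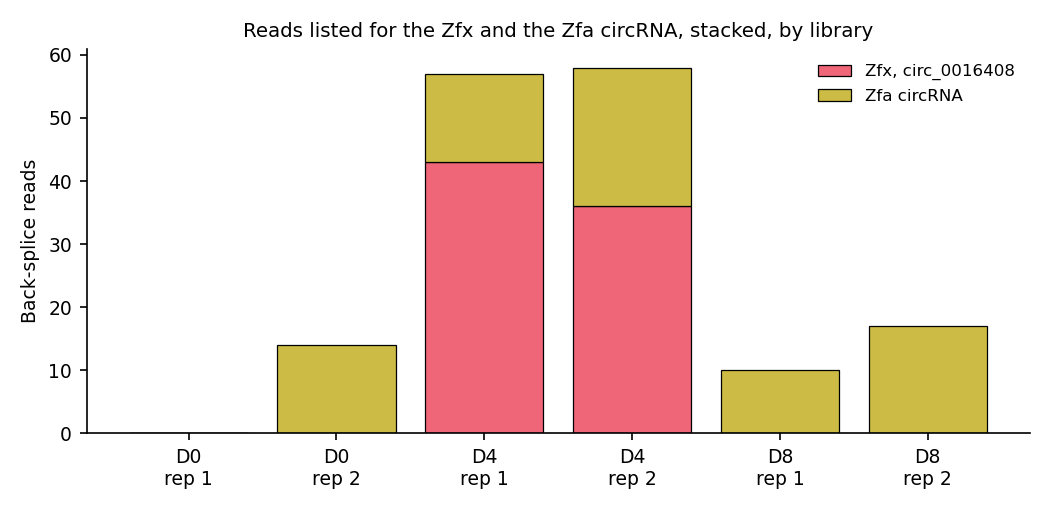
Back-splice reads (vertical axis) of the Zfx circRNA and of the circRNA listed at its copy Zfa in each of the 6 libraries (horizontal axis). Reads of both circRNAs are stacked, so the top of a bar is their sum. The Zfx circRNA is above 0 in both D4 libraries alone, and the Zfa circRNA is above 0 in 5 of 6 libraries.

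Circles can hold matches to the seed of a miRNA, the bases 2 to 8 through which it pairs with a target. Seeds of miR-17-5p, miR-30c-5p and miR-130a-3p, taken from the RefSeq sequences of GRCm38.p6, were searched on the strand of the circle, joint included. The miR-17-5p sequence is shown with its seed in capitals because it gave the only matches.
miR-17-5p: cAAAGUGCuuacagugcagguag
Both Zfp827 circles held 1 match to it, the letters GCACTTT, in exons they share, and the other 16 of 18 pairs of miRNA and circle had none. It starts at base 109 of both circles, within exon 6. Of circRNAs whose spliced length differed from theirs by a ratio of no less than 0.8, 2.93% held that match for circ_0001698 and 2.34% for circ_0001697. A match says nothing of binding.

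For each named circRNA the 3 whose levels were most alike over the 6 libraries were listed, by Pearson r of log2(circCPM + 10). Nsd2 circ_0001335 was closest to circRNAs of Selenoi (r = 0.996), Wdr33 (0.976) and Pdlim5 (0.970), which were all listed at 0 on D8, where circ_0001335 was not. With a pseudocount of 1 Pdlim5 ranked 4th, and with 100 Wdr33 ranked 9th. Setbp1 circ_0000903 was closest to Marf1 circ_0000664 (0.994), Zmynd11 circ_0004916 (0.990) and Tbcel circ_0015584 (0.982). Zfp827 circ_0001698 was closest to Sacm1l circ_0015402 (0.991), Dcbld2 circ_0000693 (0.983) and Crim1 circ_0000818 (0.982). Zfx circ_0016408 was closest to Bmper (0.999), Nfia (0.998) and Abi1 (0.998), which were likewise listed on D4 alone. These values rest on 6 libraries, in each of which all circRNAs share 1 depth, and are the highest among 1405 or 1406 compared, so they are a description.

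Other genes of the same classes gave the setting for these levels. Apart from the 6, histone-modifying and other chromatin regulators had 175 circRNAs of 79 genes. Of 72 tested, edgeR called 0 and DESeq2 0, with 5 at an unadjusted p below 0.05. Over all 1407 tested, edgeR called 16 (1.14%) and DESeq2 called 83 of the 1325 to which it gave an adjusted p (6.26%), with 295 (21%) at an unadjusted p below 0.05. Their median log2 fold change was 0.04 from D0 to D4 and -0.03 from D0 to D8, against 0.03 and 0.05 over all circRNAs tested. The most abundant was circ_0001047 of Phf21a, a reader of unmethylated histone H3, whose circCPM was 6971 ± 1367, 5683 ± 1469 and 5513 ± 129 from D0 to D8 (SD, n = 2). Next came circ_0000945 of the hemimethylated DNA binder Uhrf2, at 2986 ± 1686, 1371 ± 166 and 2406 ± 784, and circ_0014455 of the Polycomb subunit Eed, at 2126 ± 846, 1595 ± 154 and 1927 ± 298. The stage test of Phf21a gave an adjusted p of 0.791 by edgeR, and 0.501 to 0.992 over its alternatives.

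Zinc-finger genes had 101 circRNAs of 56 genes apart from the 6. Of 43 tested, edgeR called 0 and DESeq2 4 of the 42 with an adjusted p, against 6.26% of all by DESeq2, and 10 had an unadjusted p below 0.05, against 21% of all. The DESeq2 calls belonged to Zfp532, Gli3, Zbtb38 and Zbtb16. The median log2 fold change was -0.18 from D0 to D4 and -0.40 from D0 to D8, against 0.03 and 0.05 over all circRNAs tested. Zbtb16, a transcriptional repressor, shared the lowest edgeR adjusted p with Zbtb38 and is described after its values were seen. Its circRNA at chr9:48525388-48641204 was read 2 and 0 times at D0, 34 and 35 times at D4, and 47 and 53 times at D8, with an adjusted p = 0.0540 by edgeR and 0.000598 to 0.112 over alternatives. The most abundant were circ_0000943 of Glis3 (3531 ± 1535, 3323 ± 529 and 2096 ± 90.0 circCPM), circ_0007672 of Glis3 (1845 ± 115, 2411 ± 257 and 964 ± 116) and circ_0001190 of Zfp292 (1564 ± 239, 2111 ± 134 and 1835 ± 335).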

How the data were processed

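The authors aligned reads to mm9, called circRNAs per library with CIRI2 and deposited raw counts of back-splice reads, without normalization, for circRNAs with at least 2 reads in both replicates of a stage. The submitters' processing notes also list FastQC 0.11.9 and HISAT2 2.2.0. Members and gene lists were chosen with earlier results of these data known. The named circRNAs are the 4 given by identifier, those overlapping them or sharing their gene, the 3 most alike to each, and those called and, in the chromatin and zinc-finger lists, the 3 most abundant. The circRNAs of Zfa, Zbtb16 and the other DESeq2 calls are outside this rule and were named after their values were seen. So were the circRNAs of the marker genes Insr, Acaca, Pdgfra and Adgre1. Counts were fitted in R 4.3.3 with edgeR 4.0.16 (TMM, filterByExpr with minimum count 10 and total 15, quasi-likelihood F-test of both stage terms, Benjamini-Hochberg adjustment at 0.05 over 1407 circRNAs). The fit was also run on simulated data, but the outcome is not given here and nothing is read from it. DESeq2 1.42.0, RLE factors, column totals, no filter, a replicate block and each library left out were alternatives. The ranges of adjusted p and the counts of calls leave out column totals. The replicates are described as biological, and their separate animals are not given in the sources used here, so p-values measure the spread between these libraries. Gene models are GENCODE for mm9 (Ensembl release 65). Sequences were placed with pysam 0.24.0, biopython 1.88 and minimap2 2.31.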

Additional observations from a re-analysis of the deposited data

How the results depend on the processing

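The count of circRNAs called in the whole table, 16, was 83 with DESeq2, 396 with no filter on low counts, and 2 to 58 when 1 library was left out. Among chromatin regulators it was 15 with no filter and 0 to 1 with a library left out, and among zinc-finger genes 4 with DESeq2, 9 with no filter and 0 to 4 with a library left out, against 0 and 0. Same-numbered replicates did not deviate together (correlations 0.0351, 0.0699 and 0.0469), so the numbers were not taken as pairs, and the replicate block gave 4 calls in all. Of 108 alternatives for the log2 fold changes, 103 kept their sign and moved by less than 1 SE. With a library left out, the D0 to D4 value ran from -0.55 to 0.065 for Nsd2 circ_0001335 and from -0.13 to 0.018 for Setbp1 circ_0000903, reversed in both without replicate 1 of D0. From D0 to D8, over the alternatives for fold changes, the former ran from -1.96 to -1.35 and the latter from 0.55 to 0.75. Those alternatives were RLE factors, column totals, the replicate block and each library left out, without DESeq2 and the fit with no filter. Circ_0001697 of Zfp827 was uncalled with DESeq2, with RLE factors, with no filter and with the replicate block. With 8 to 13 reads of both Zfp827 circRNAs per library on D4, the depth there limits any share.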
